A study of Equus caballus with 28 samples.

Results

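The miR-371 and miR-372 cluster was examined in miRNA sequencing counts of the equine embryo–maternal interface 13 days after ovulation. The members were every entry of the known mature horse miRNAs named miR-371, miR-372 or miR-373, with any arm. The rule gave 3 of 690 known mature miRNAs, namely eca-miR-371-5p, eca-miR-371-3p and eca-miR-372, and no entry was named miR-373. Together with 154 predicted miRNAs the counts covered 844 miRNAs.

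A miRNA is a short RNA that guides the silencing complex to messenger RNAs, mainly through the bases near its 5′ end, the seed. In human the cluster of miR-371, miR-372 and miR-373 is active in pluripotent stem cells, early embryos and placenta, and the miR-290 cluster is its counterpart in mouse. The 3′ arms of human miR-372 and miR-373 share their seed with the miR-302 family of pluripotent cells and nearly so with miR-17, miR-20, miR-93 and miR-106. The group is known for easing entry into S phase through targets such as the cell cycle inhibitor CDKN1A and the kinase LATS2. The 5′ arm of miR-371 carries another seed.

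The study followed 5 Warmblood mares through a pregnant and a cyclic control cycle. In both cycles ovulation was induced with hCG, and in the pregnant cycle the mares were inseminated with fresh semen of one stallion, whereas they were left unbred in the control cycle. The 28 libraries comprised endometrial biopsies of 5 pregnant and 4 cyclic mares, uterine fluid (UF) taken up by a tampon in 5 pregnant and 4 cyclic cycles, and from 5 conceptuses the embryonic tissue without its capsule and the aspirated yolk sac (YS) fluid. Samples are named here by mare, read from the sample number, and mare 5 has no cyclic library among those used. No genetic modification was involved, and ages of the mares are not given in the sources used here. A serum and plasma kit served for the RNA of fluids and a column kit for that of tissues, so that a fluid and a tissue differ in the kit as well, and their part in a difference cannot be told apart. In these bulk samples, fewer cells of a type and less RNA per cell cannot be told apart either.

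Depth set the precision of every value. Libraries held 280065 to 590593 miRNA reads in pregnant endometrium, 61836 to 371630 in cyclic endometrium, 79173 to 152860 in pregnant UF, 62087 to 226308 in cyclic UF, 28204 to 44768 in embryo and only 4352 to 14531 in YS fluid. Levels are given as CPM, the count scaled to a common total of the library's known and predicted miRNA reads. In the embryo of mare 1 only 17953 of 28204 reads were of known miRNAs, compared with 33359 of 36203 in that of mare 3. Its CPM values are lowered by that share of predicted miRNAs, the cause of which was not tested. A floor of 3 reads equals 5.08 to 10.7 CPM in pregnant endometrium, 67.0 to 106.4 CPM in embryo and 206 to 689 CPM in YS fluid, and such floors and the binomial intervals below cover counting error only. The labels were checked with marker miRNAs: the summed level of miR-302a to miR-302d and miR-367, markers of pluripotent and early embryonic cells, was 6808 to 30446 CPM in embryo, 14246 to 62529 CPM in YS fluid and at most 24.1 CPM in a maternal library. The 5 leukocyte markers summed to at most 193 CPM in embryo against at least 1268 CPM in each maternal library. In YS fluid they summed to 138 to 919 CPM, from 2 to 9 reads a library. There 4 of the 5 were at 0 in every library, which says little at this depth. Not every marker list separated the groups. Endothelial markers summed to 134 to 346 CPM in embryo and 7.42 to 316 CPM in pregnant UF. Red blood cell markers overlapped between YS fluid and pregnant UF.

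The annotated MIR371 and MIR372 genes of the horse lie next to each other, with 0 annotated genes between them, in the RefSeq annotation of the TB-T2T assembly. The 3 members matched these 2 precursors, and no MIR373 entry was listed. Their neighbours were the pseudogene LOC111775139, beyond which lies the homeobox gene DPRX, and on the other side NLRP12, which encodes a cytosolic receptor of the innate immune system.

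miR-371-5p and miR-372 were abundant in embryo and YS fluid and nearly absent from endometrium and UF. Over the 10 embryo and YS fluid libraries miR-371-5p had 3639 reads and miR-372 had 3244 reads, against 8 and 4 reads over the 18 maternal libraries, which held 4080346 reads. The third member, miR-371-3p, was at or below the floor in every library.

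In embryo, miR-371-5p reached 1383 CPM in mare 1, 1720.0 CPM in mare 2, 5027 CPM in mare 3, 21580.2 CPM in mare 4 and 9540.1 CPM in mare 5. These levels rest on 39, 77, 182, 623 and 395 reads. The embryos of mares 1 and 2 were lowest and that of mare 4 highest, a range of 15.6-fold, with a mean of 7850.1 ± 8348 CPM (SD, n = 5), and of 4418 CPM without mare 4. The share of known and predicted reads was 0.138% in the embryo of mare 1 (95% Wilson interval 0.101 to 0.189) and 2.16% in that of mare 4 (1.997 to 2.33), so the spread went beyond counting error. On known reads alone, 17953 in mare 1 and 42519 in mare 2, the embryo of mare 2 was lowest. The lowest embryo and the range thus depend on the total.

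miR-372, the other abundant member, was more even among embryos. It reached 3794 CPM in mare 1, 8779 CPM in mare 2, 4640.5 CPM in mare 3, 19086 CPM in mare 4 and 14612 CPM in mare 5, from 107, 393, 168, 551 and 605 reads. The range was 5.03-fold and the mean 10182 ± 6565 CPM (SD, n = 5). The embryo of mare 4 was again highest, and in it the members ranked 13 and 15 among all its miRNAs by reads. That of mare 1 was lowest on the total of known and predicted reads. On known reads alone, 17953 in mare 1 and 33359 in mare 3, the embryo of mare 3 was lowest.

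In YS fluid, miR-371-5p was at 12525 CPM in mare 1, 142857 CPM in mare 2, 3750.2 CPM in mare 3, 14016 CPM in mare 4 and 3647 CPM in mare 5. These levels came from 95, 2065, 49, 61 and 53 reads. The fluid of mare 2 stood far above the rest, and its share of 14.3% (95% Wilson interval 13.7 to 14.9) made miR-371-5p the miRNA with rank 2 in that library. The mean was 35359 ± 60286 CPM (SD, n = 5), and 8485 ± 5560 CPM (SD, n = 4) without mare 2.

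miR-372 followed the same order at the top. It was at 8174 CPM in mare 1, 84399.9 CPM in mare 2, 5281 CPM in mare 3, 8272 CPM in mare 4 and 2271 CPM in mare 5, from 62, 1220, 69, 36 and 33 reads. In the fluid of mare 2 it held rank 3, behind miR-371-5p. The mean was 21680 ± 35148 CPM (SD, n = 5), and 5999 ± 2847 CPM (SD, n = 4) without mare 2.

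The YS fluid library of mare 2 also stood apart in other respects. Its median correlation with the other 4 YS fluid libraries over 71 other known miRNAs was 0.660, compared with 0.767 to 0.880 for the others. Of these miRNAs 7 were outlying and high in it, and 8 were in the library of mare 4, the shallowest with 4352 reads. Its summed epithelial markers (48634 CPM), smooth muscle markers (623 CPM), ciliated cell markers (761 CPM) and leukocyte markers (138 CPM, from 2 reads, under the floor) were the lowest of YS fluid. Its red blood cell markers (553 CPM) and endothelial markers (207.5 CPM) were not, and its miR-302a to miR-302d sum of 36596 CPM lay within the other YS fluids. The part of these differences in the high member levels was not tested, so the levels and differences that rest on this library are given with and without it.

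miR-371-3p, the other arm of the miR-371 precursor, had 9 reads in all. The embryos of mares 1, 2 and 3 had 1 read each, those of mares 4 and 5 had 2 reads each, the YS fluid of mare 2 had 2 reads, and no maternal library had a read. It was therefore barely detected at this depth, and no fold change is given for it. A count of 0 over the pregnant endometrium libraries allows a level of up to 1.63 CPM.

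**Figure D1:**
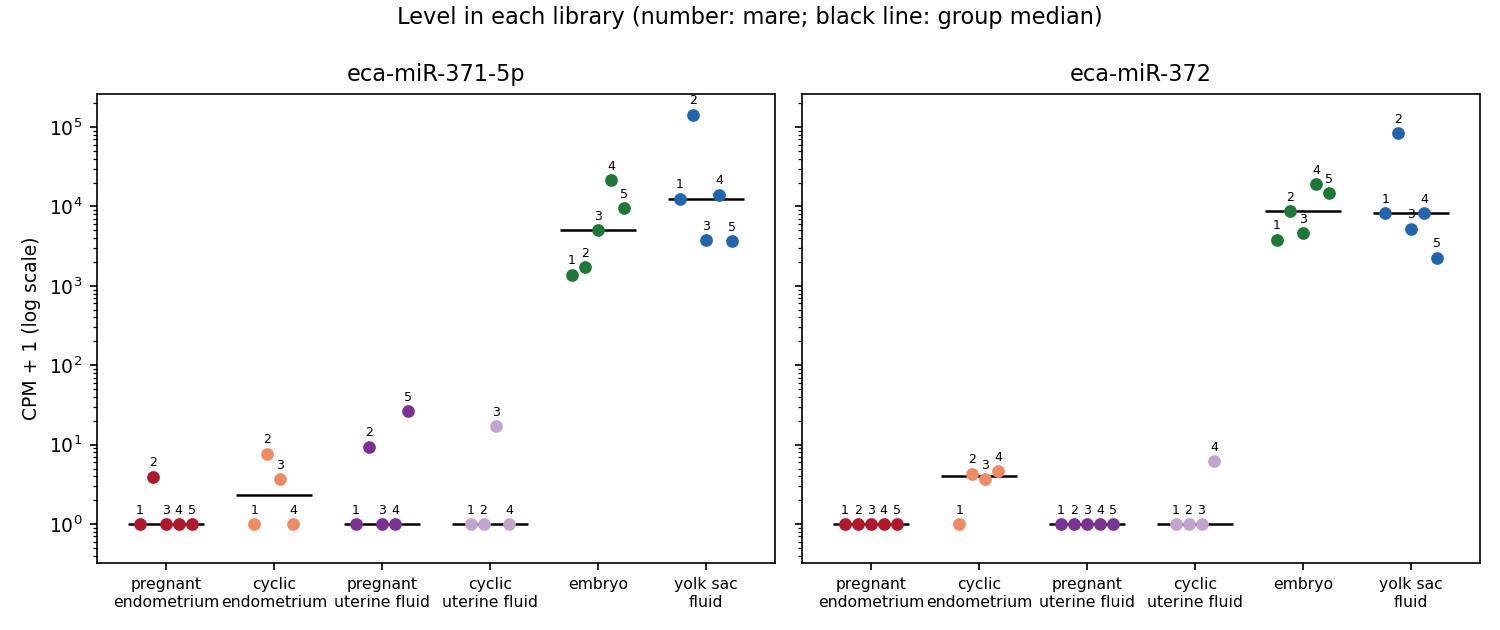
Level of miR-371-5p (left) and miR-372 (right) in each of 28 libraries, as CPM + 1 on a log scale, by group on the x axis; each point is a library labelled with its mare and the black line is the group median. All embryo and YS fluid libraries lie above 1000 CPM and all maternal libraries below 30 CPM, and the YS fluid of mare 2 is highest in both panels.

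The maternal reads were single events. miR-371-5p had 1 read in the pregnant endometrium of mare 2, 1 in the pregnant UF of mare 2 and 2 in the pregnant UF of mare 5, together 4 reads in pregnant samples. In cyclic samples it had 2 reads in the endometrium of mare 2, 1 in that of mare 3 and 1 in the UF of mare 3, again 4 reads. The pregnant and cyclic libraries thus had equal read numbers for it, but not equal depth. Pregnant endometrium and UF held 1840629 and 569244 reads, and cyclic endometrium and UF 1012903 and 657570, so equal reads are not equal levels.

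miR-372 had 1 read each in the cyclic endometrium of mares 2, 3 and 4 and in the cyclic UF of mare 4, and 0 in all 10 maternal libraries of pregnant cycles. The absence allows a level of up to 1.63 CPM over pregnant endometrium and up to 5.27 CPM over pregnant UF. All maternal counts were below the floor of 3 reads, so no change between pregnant and cyclic mares was detectable at this depth.

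To see how much the conceptus differed from the maternal side, each pair of groups was tested with edgeR's quasi-likelihood test, with a miRNA called at a fold change of 2 or more together with an FDR not above 0.05. Because the maternal groups lay under the floor, fold changes of CPM means are given as lower bounds against the mean floor per library. These use CPM without TMM scaling and hold against the floor only, not against counting error or the spread between mares. The fitted log2 fold changes depend on the prior count and are no bounds. In embryo compared with pregnant endometrium, miR-371-5p was at least 896-fold and miR-372 at least 1162-fold higher. The fitted log2 fold change was 11.42 (SE 1.199, FDR 6.4e-06) for miR-371-5p and 12.82 (SE 0.87, FDR 5.9e-06) for miR-372. Both were called, beside 71.3% of all miRNAs tested, 28.7% higher and 42.6% lower. The members passed the low-count filter only through the conceptus group, here and in the comparisons below, so a call could only be higher there and their number is no support. miR-371-3p, with 7 reads in embryo, is given no fold change.

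In YS fluid compared with pregnant endometrium, miR-371-5p was at least 4036-fold and miR-372 at least 2475-fold higher. Both were called, with fitted log2 fold changes of 12.88 (SE 1.47, FDR 2.3e-06) and 13.11 (SE 1.58, FDR 2.2e-05), beside 53.1% of all miRNAs called, 17.9% higher and 35.2% lower. miR-371-3p had too few reads to be tested. These fold changes take in the library of mare 2, and without that mare the fitted log2 fold changes were 11.32 and 10.87. The lower bounds scale with the YS fluid mean. For miR-371-5p it was 35359 CPM with mare 2 and 8485 CPM without, and for miR-372 21680 and 5999 CPM.

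Against pregnant UF the differences had the same direction. In embryo, miR-371-5p was at least 278-fold and miR-372 at least 361-fold higher, with fitted log2 fold changes of 8.62 (SE 1.15, FDR 5.0e-05) and 11.56 (SE 0.90, FDR 1.1e-05), beside 68.4% of all miRNAs called, 29.7% higher and 38.7% lower. In YS fluid, miR-371-5p was at least 1254-fold and miR-372 at least 769-fold higher, with fitted log2 fold changes of 10.88 (SE 1.52, FDR 1.7e-05) and 12.25 (SE 1.76, FDR 9.2e-05), beside 59.6% called, 23.5% higher and 36.1% lower. Without mare 2 the latter were 8.39 and 9.84. Embryo and YS fluid were each compared with the same pregnant endometrium and UF libraries, so these comparisons are not independent. The lower bounds rest on means that mare 2 in YS fluid and mare 4 in embryo raised. Taken from the lowest library of the high group over the highest floor of the low group, they were 129-fold in embryo and 340.5-fold in YS fluid for miR-371-5p against pregnant endometrium, and 354-fold and 212-fold for miR-372. Against pregnant UF they were 36.5-fold in embryo and 96.3-fold in YS fluid for miR-371-5p, and 100.1-fold and 59.9-fold for miR-372.

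The summed level of the members gave the same separation with no model. It was 18073 ± 14524 CPM in embryo and 57066 ± 95482 CPM in YS fluid, against 0.592 ± 1.32 CPM in pregnant endometrium and 6.73 ± 11.0 CPM in pregnant UF (SD, n = 5 each). The YS fluid mean was 14484 ± 8219 CPM (SD, n = 4) without mare 2, and the embryo mean was 12407 ± 8201 CPM (SD, n = 4) without mare 4. With TMM-scaled library sizes the means were 10399 CPM in embryo and 21256 CPM in YS fluid. The same scaling raised the means of pregnant endometrium to 0.984 CPM and of pregnant UF to 8.68 CPM. No embryo or YS fluid library overlapped with a pregnant maternal library. The share of all miRNAs that likewise did not overlap was not computed, so this separation only describes the members. The exact two-sided permutation test gave p = 0.00794 in each of these 4 comparisons, the smallest p that 5 against 5 libraries allow, and 0.0159 after adjustment over the 8 comparisons. It took the groups as independent, although they come from the same mares. As the members were chosen with earlier results of these data known, this p is no support. Paired by mare, an exact sign-flip test of 5 pairs can give no p under 0.0625, and none was run on the summed level.

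Between maternal groups no difference was detected. The summed level was 4.73 ± 4.14 CPM in cyclic endometrium (SD, n = 4), compared with 0.592 CPM in pregnant endometrium (exact permutation p = 0.0952). It was 5.31 ± 7.59 CPM in cyclic UF (SD, n = 4), compared with 6.73 CPM in pregnant UF (exact permutation p = 0.873). Pregnant UF and pregnant endometrium gave an exact permutation p of 0.444. These permutation tests, too, took the groups as unpaired. In edgeR these miRNAs fell below the low-count filter here, so none was tested. Of all miRNAs tested between pregnant and cyclic mares, 3.37% were called in endometrium, all higher in pregnancy, and 4.92% in UF, 1.31% higher and 3.61% lower. These shares depended on the mare as block: without it edgeR called 0 miRNAs in either, with an unadjusted p under 0.05 for 58 in endometrium and 35 in UF, and with it DESeq2 called 12 and 7. Between pregnant UF and endometrium 33.7% were called, 13.6% higher in UF and 20.1% lower. With the filter lifted, the FDR for pregnant compared with cyclic endometrium was 0.846 for miR-371-5p and 0.737 for miR-372.

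Embryo and YS fluid did not differ detectably in either member, but the interval was wide. The fitted log2 fold change of embryo compared with YS fluid was −1.68 (SE 1.12, FDR 0.248) for miR-371-5p and −0.61 (SE 0.93, FDR 0.620) for miR-372, and 0 of 3 members were called beside 35.1% of all miRNAs tested, 22% higher and 13.1% lower. Both signs turned without mare 2, to 0.98 (FDR 0.358) and 1.55 (FDR 0.081), and that of miR-372 also turned with the mare as a block, to 0.57 (FDR 0.582). The summed level gave an exact permutation p of 0.683 over 5 and 5 libraries, with groups that overlapped. The order of the groups was thus YS fluid and embryo, which did not differ beyond their spread, and then the maternal groups, which did not differ beyond theirs.

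Set side by side within a conceptus, the levels moved in both directions. For miR-371-5p the YS fluid was 9.06-fold the embryo in mare 1 and 83.1-fold in mare 2, but 0.746-fold in mare 3, 0.650-fold in mare 4 and 0.382-fold in mare 5. For miR-372 the values were 2.15-fold in mare 1, 9.61-fold in mare 2, 1.14-fold in mare 3, 0.433-fold in mare 4 and 0.155-fold in mare 5. Mare 2 had the highest YS fluid but, for miR-371-5p, an embryo lower than those of mares 3, 4 and 5. The 5 conceptuses are too few for a correlation.

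**Figure D2:**
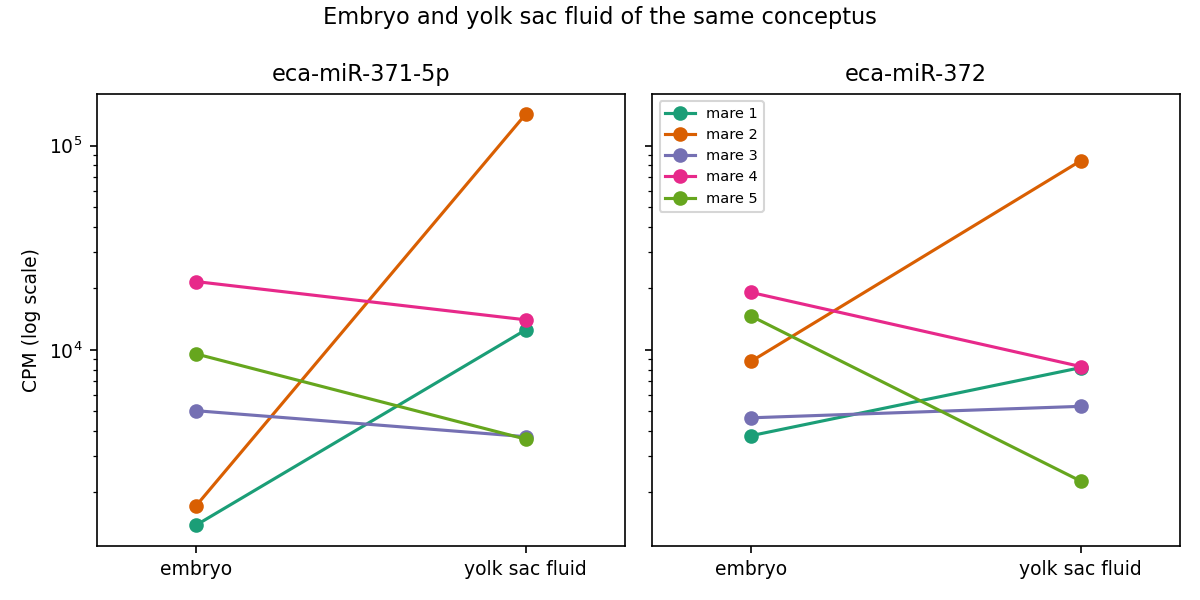
CPM of miR-371-5p (left) and miR-372 (right) on a log scale in the embryo and the YS fluid of the same conceptus, with a line for each of 5 mares. The lines of mares 1 and 2 rise and those of mares 4 and 5 fall in both panels, and mare 2 rises most, by 83.1-fold for miR-371-5p.

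The balance between the abundant members also varied, and here the library total plays no part. The ratio of miR-371-5p to miR-372 reads was 0.364, 0.196, 1.08, 1.13 and 0.653 in the embryos of mares 1 to 5. In the YS fluids it was 1.53, 1.69, 0.710, 1.69 and 1.61. miR-371-5p exceeded miR-372 in 4 of 5 YS fluids and in the embryos of mares 3 and 4.

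The mean log2 ratio was −0.83 ± 1.08 in embryo and 0.47 ± 0.54 in YS fluid (SD, n = 5 each), a difference of 1.29 with an exact two-sided permutation p of 0.0556. Paired by mare, the ratio was higher in YS fluid in 4 of 5 mares, with an exact sign-flip p of 0.1875 where 0.0625 is the smallest possible. The difference therefore passed the threshold in neither test. Without mare 2 the difference was 0.84, with an exact permutation p of 0.171 unpaired and an exact sign-flip p of 0.375 paired. Mare 3, whose values went against it, moved it most: without that mare it was 1.77, with an exact permutation p of 0.0286 unpaired and an exact sign-flip p of 0.125 paired, each the smallest possible with 4 mares, and as the mare was singled out by its value these p-values support nothing.

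Relative to the miR-302 family, the other pluripotency-associated group, the summed member reads were 0.766, 0.346, 0.525, 1.70 and 1.29 of the miR-302a to miR-302d reads in the embryos of mares 1 to 5. In YS fluid the ratio was 0.515, 6.21, 0.145, 1.59 and 0.205. The fluid of mare 2 was again the highest, with a lower embryo. The mean log2 ratio was −0.34 ± 0.94 in embryo and −0.55 ± 2.23 in YS fluid (SD, n = 5 each, exact permutation p = 0.857). Without mare 2 it was −0.04 ± 0.76 in embryo and −1.34 ± 1.55 in YS fluid (SD, n = 4 each), a difference of −1.30 with an exact permutation p of 0.171. The ratio was then lower in YS fluid in each of the other 4 mares, with an exact sign-flip p of 0.125, the smallest that 4 pairs allow. With all 5 mares the exact sign-flip p was 0.8125. As mare 2 was singled out by its value, the p-values without it support nothing.

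**Figure D3:**
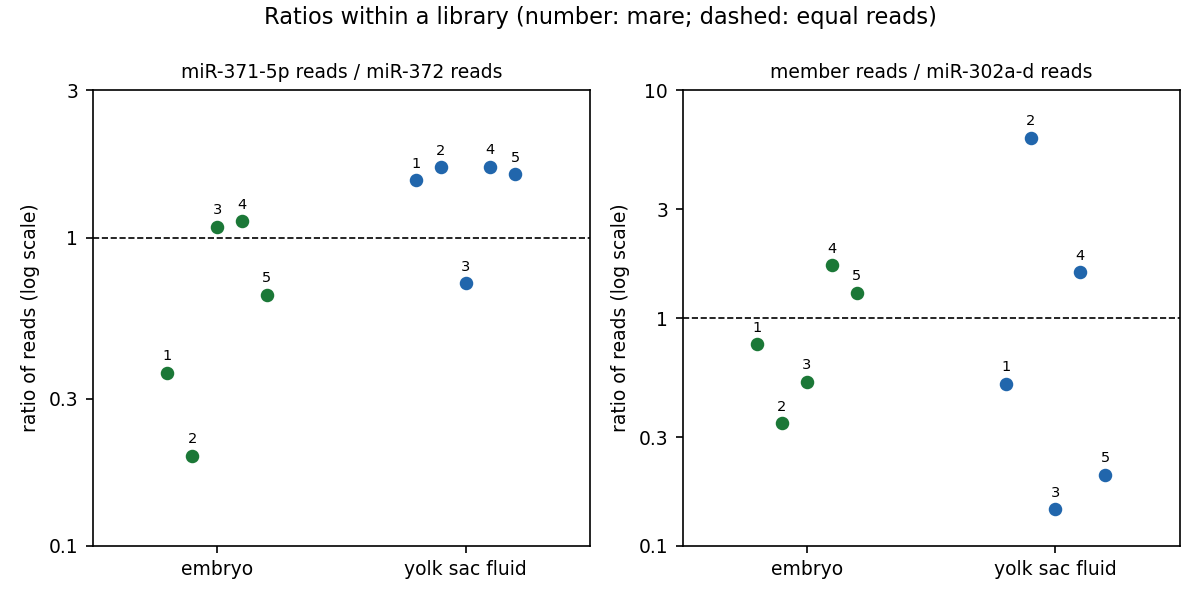
Ratio of miR-371-5p to miR-372 reads (left) and of summed member reads to miR-302a to miR-302d reads (right) in each embryo and YS fluid library, on a log scale, labelled by mare, with equal reads as a dashed line. On the left, 4 of 5 YS fluids lie above 1, and on the right the YS fluid of mare 2 lies highest at 6.21.

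The spread between conceptuses was compared with that of other abundant miRNAs, as the SD of log2(CPM + 10) over the 5 libraries of a group among known miRNAs with a mean of at least 1000 CPM. In embryo, miR-371-5p had the highest SD of 59 miRNAs, 1.66 compared with a median of 0.52. miR-372 ranked 8 with an SD of 1.01. With each embryo left out in turn, miR-371-5p ranked 1 or 2 and miR-372 between 6 and 14.

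In YS fluid, miR-371-5p ranked 4 of 73 miRNAs with an SD of 2.15 and miR-372 ranked 6 with 1.93, against a median of 0.75. Without mare 2 the ranks were 13 and 25 of 70. The wide spread in YS fluid thus rested mostly on that library, whereas in embryo that of miR-371-5p did not rest on any single one. miR-372 in embryo fell from rank 8 of 59 to rank 14 of 58 without mare 4. These ranks are a description with no test.

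**Figure D4:**
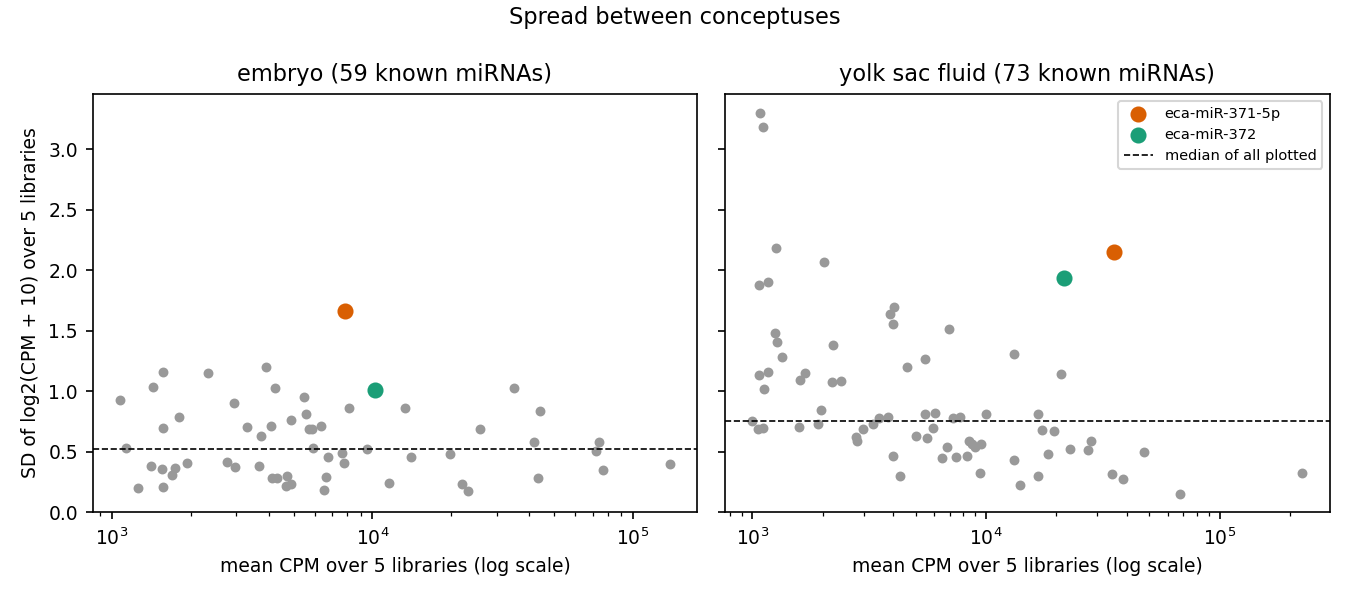
SD of log2(CPM + 10) over 5 libraries against mean CPM (log scale) for known miRNAs with a mean of at least 1000 CPM in embryo (left, 59 miRNAs) and YS fluid (right, 73 miRNAs), with the members coloured and the median SD dashed. In embryo miR-371-5p is the uppermost point at 1.66, and in YS fluid both members lie near 2.

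The miRNAs most like the members over the 28 libraries were sought by Pearson correlation of log2(CPM + 10) among 218 known miRNAs with at least 50 reads. For miR-371-5p they were miR-302b (0.971), miR-302c (0.967), miR-302d (0.966), miR-18a (0.965) and miR-302a (0.963). For miR-372 they were miR-302b (0.983), miR-302c (0.981), miR-302d (0.980), miR-302a (0.979) and miR-18a (0.973), and the members correlated with each other at 0.986. These values mainly carry the gap between 10 conceptus and 18 maternal libraries, which such miRNAs share along with library depth.

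Within the 10 embryo and YS fluid libraries alone the picture was different. miR-371-5p and miR-372 correlated at 0.851, and at 0.640 without the YS fluid of mare 2. Their correlations with the 4 miR-302 members lay between 0.15 and 0.37, and between 0.023 and 0.20 without that library. Spearman correlations were 0.721 and 0.617 for the pair. With the miR-302 members they lay between 0.079 and 0.31, and between −0.10 and 0.23 without that library. The 10 libraries come from 5 conceptuses and are not independent, so these correlations are a description with no test. The nearest miRNAs of miR-371-3p were miR-7 (0.778), miR-671-5p (0.729), miR-767-5p (0.722), miR-130b (0.717) and miR-19a (0.714), a description of a miRNA with 9 reads.

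The other miRNAs of the group were followed in a list of miR-302a to miR-302d, their cluster partner miR-367, which has another seed, and miR-17, miR-20a, miR-20b, miR-93, miR-106a and miR-106b of the miR-17 family. It held 11 measured miRNAs outside the members. miR-17 and miR-106a had nearly the same counts in every library (2020 and 1901 reads in all, at most 15 reads apart), so shared reads cannot be told apart, and the counts below, which hold both, are not counts of separate miRNAs.

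In embryo compared with pregnant endometrium, 9 of 10 tested were called higher and 0 lower, beside 28.7% and 42.6% of all miRNAs, with a median log2 fold change of 5.43 beside −1.02 for all miRNAs tested. Here and against UF, miR-302a to miR-302d, and miR-367 where tested, passed the low-count filter only through the conceptus group. They had at most 1 read each over a pregnant maternal group and could only be called higher. miR-20b also needed the conceptus libraries to pass, with 13 reads over pregnant endometrium and 5 over pregnant UF and a lowest count of 0 in each. The calls of these miRNAs, and the counts and medians that take them in, are therefore no support. The call of miR-93, at 1.02, was lost under 5 alternatives, among them the mare as a block. In YS fluid compared with pregnant endometrium, 10 of 11 were called higher and miR-106b was called lower, a call lost under 7 alternatives, beside 17.9% and 35.2% of all miRNAs, with a median of 5.52 beside −0.84. Against pregnant UF, 8 of 10 were called higher in embryo and 9 of 11 in YS fluid, beside 29.7% and 23.5% of all miRNAs, with medians of 4.52 and 4.44 beside −0.23 and −0.54. The call of miR-20a in YS fluid, at 1.03, was lost under 5 alternatives, among them the mare as a block. A call as higher was gained by miR-106b in embryo under 5 alternatives and by miR-93 in YS fluid under 3. Scaling by RLE size factors in place of TMM moved the median of all miRNAs up by 0.47 to 0.82 in these comparisons, and miR-93, not called in embryo against UF, had a log2 fold change of −0.21 with TMM and 0.58 with RLE.

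Levels within the list ranged widely. miR-302a to miR-302d had medians of 1063 to 8038 CPM in embryo, 1583 to 16465 CPM in YS fluid and 0 CPM in each maternal group. miR-20b, of the X-linked cluster related to miR-17, had medians of 2922 CPM in embryo and 17205 CPM in YS fluid against 7.14 to 14.7 CPM in the maternal groups. miR-106a, of the same X-linked cluster, had medians of 105 to 298 CPM in the maternal groups and 4058 CPM in embryo, with miR-17 close to it in each group. miR-20a, of the miR-17 cluster itself, had medians of 379 to 903 CPM in the maternal groups and 6200.4 CPM in embryo. miR-367 was listed with 0 reads in the maternal groups and had medians of 96.6 CPM in embryo and 132 CPM in YS fluid, from 40 and 6 reads. miR-93 and miR-106b, made from an intron of MCM7, were present everywhere, miR-93 at medians of 1288 to 3297 CPM in the maternal groups and 7818 CPM in embryo.

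Between embryo and YS fluid 2 of 11 were called, beside 35.1% of all miRNAs tested, so the list had no more calls than miRNAs at large. miR-20b was lower in embryo, with a log2 fold change of −1.98 (SE 0.40, FDR 0.0042). miR-106b was higher in embryo, at 2.08 (SE 0.64, FDR 0.030), a call that was lost with the filter lifted and without mare 1, 4 or 5. The other 9 were not called, and the median was −0.23 beside 0.28 for all miRNAs tested. In pregnant UF compared with pregnant endometrium 1 of 6 tested was called, beside 33.7% of all miRNAs, namely miR-106a at 1.02, while miR-17 with nearly the same counts was at 0.90 (FDR 0.034), under the fold change required. Between pregnant and cyclic mares the lowest FDR of the 6 tested was 0.516 in endometrium and 0.800 in UF, in comparisons where few miRNAs were called at all, 3.37% and 4.92%.

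**Figure D5:**
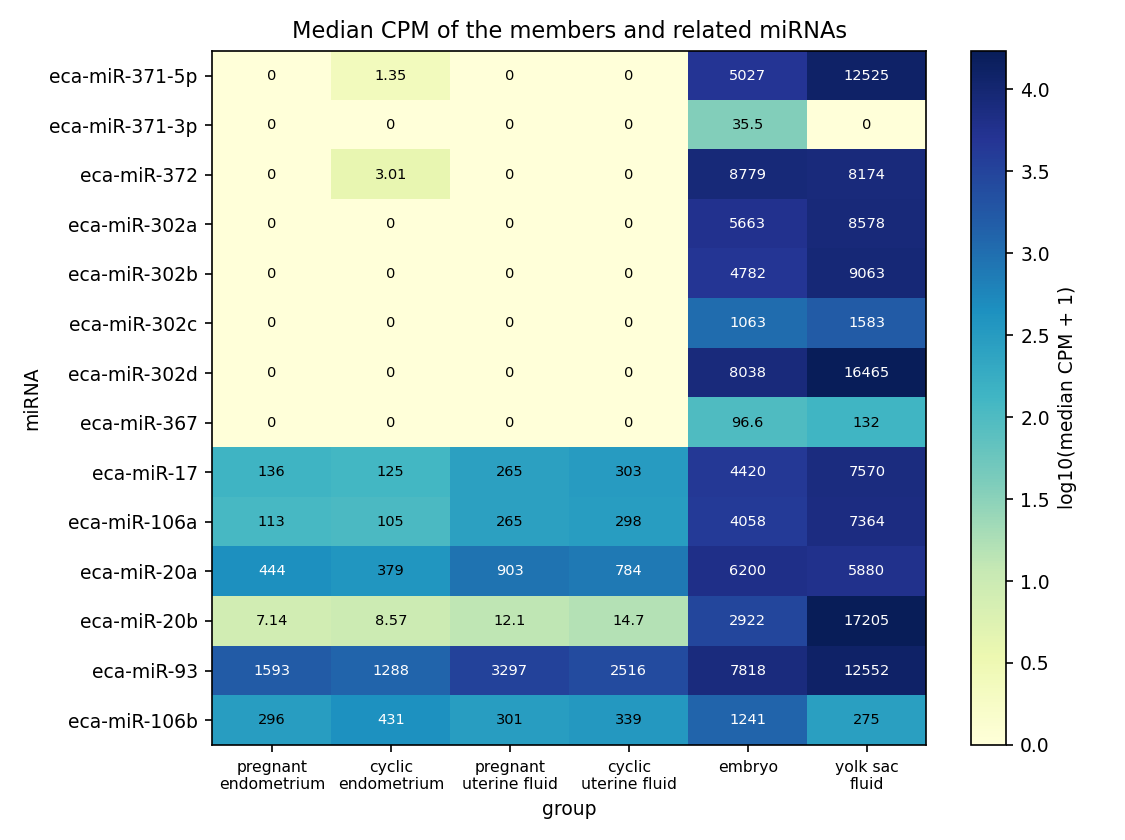
Median CPM of the 3 members and 11 related miRNAs (rows) in the 6 groups (columns); the number is the median CPM and the colour its log10 after adding 1. miR-371-5p, miR-372 and miR-302a to miR-302d are at or near 0 in the 4 maternal groups and above 1000 CPM in embryo and YS fluid, whereas miR-17, miR-106a, miR-20a, miR-93 and miR-106b have medians of at least 104.5 CPM in every group.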

How the data were processed

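The authors used cutadapt 1.11 to trim adapters and drop short or low-quality reads, and counted reads with miRPro on the miRNAs of miRBase and the horse genome EquCab2.0. They deposited raw counts per miRNA, with no normalization. How reads matching several miRNAs were counted is not given in the sources used here, nor is the use of strand. Known and predicted miRNAs were analysed together. The deposited table of precursors repeats the predicted counts and was not used. Columns matching no sample numbered 0. Mature sequences were not used here, so none are printed and seeds were not compared by sequence.

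Groups came from the labels. The members and lists were chosen with earlier results of these data known. For each of 8 comparisons, only the libraries compared entered a fit in edgeR 4.0.16, run under R 4.3.3 (at least 1 CPM in as many libraries as the smaller group, TMM, quasi-likelihood test, Benjamini-Hochberg over all miRNAs tested), after testing on simulated data. The standard error was derived from the F statistic. Pregnant and cyclic samples were compared with the mare as block, where mare 5 has no cyclic partner. Mares pair the samples by the study's methods, and same-mare correlations of deviations lay between −0.266 and 0.412. p-values measure the spread between these mares. Single values were tested with exact permutation tests in scipy 1.17.1 on Python 3.11.15, without pairing for the summed level although the mares pair the groups. Named were the members, the related list with at least 50 reads, and the 5 most alike miRNAs. Alternatives were RLE size factors, other filters, the likelihood ratio test, DESeq2 1.42.0, a single fit, known miRNAs only, FDR alone, the block, and each mare left out. Alternatives added after seeing the data were the members left out of the totals, the paired ratio test, the list counts under each setting, the correlations within conceptus libraries and the ratio to miR-302.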

Additional observations from a re-analysis of the deposited data

Results flagged for a closer look

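Of 74 groups of values examined for a sample far from the others, 24 gave one. Chance gives about 1 in 20, and groups with a single read in a single library give one by construction.

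The YS fluid of mare 2 stood apart for miR-371-5p (142857 CPM, next highest 14016 CPM), miR-372 (84399.9 CPM, next 8272 CPM), their sum with miR-371-3p (227395 CPM, next 22289 CPM) and miR-371-3p (138 CPM, from 2 reads). Its ratio of miR-371-5p to miR-372 was like that of 3 other YS fluids, and the YS fluid of mare 3 stood apart with a log2 ratio of −0.49 where the next was 0.62.

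Maternal libraries stood apart on 1 or 2 reads. These were miR-371-5p in the pregnant endometrium of mare 2 (2.96 CPM, also the summed level) and the cyclic UF of mare 3 (16.1 CPM), and miR-372 in the cyclic UF of mare 4 (5.13 CPM). For the miR-302 family they were miR-302a in the pregnant endometrium of mare 3 (1.69 CPM), the pregnant UF of mare 4 (12.1 CPM) and the cyclic UF of mare 2 (8.84 CPM), miR-302b in the cyclic UF of mare 3 (16.1 CPM), miR-302c in the pregnant endometrium of mare 2 (2.96 CPM) and the cyclic UF of mare 2 (4.42 CPM), and miR-302d in the pregnant UF of mare 4 (12.1 CPM) and the cyclic UF of mare 2 (4.42 CPM).

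In the miR-17 family, miR-106a and miR-17, whose counts are nearly the same, were both high in the pregnant endometrium of mare 4 (186 and 214.2 CPM) and the YS fluid of mare 3 (15536 and 15766 CPM). miR-106a was low in the cyclic UF of mare 3 (80.5 CPM, from 5 reads), miR-20a was low in the pregnant UF of mare 1 (609 CPM), and miR-93 was high in the cyclic endometrium of mare 1 (1747 CPM).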

How the results depend on the processing

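miR-371-5p and miR-372 kept their direction and call in 116 of 116 alternatives with a p over the 4 comparisons of embryo or YS fluid with pregnant endometrium or UF, with log2 fold changes between 7.57 and 13.9 and FDR of at most 0.0021. These include FDR alone, which drops a criterion and cannot lose a call, and leave out DESeq2 in the comparisons with YS fluid, where it gave no p for either because it set a count aside as outlying (log2 fold changes of 14.4 and 14.2 against endometrium and 11.8 and 12.8 against UF). With at most 2 reads in any maternal library, the members could not turn in direction under any alternative. Their kept direction is therefore no support, and only the call could have been lost. Adding the mare as a replicate block left those calls and turned the embryo against YS fluid value of miR-372 to 0.57. Leaving out each mare moved that comparison between −3.20 and 0.98 for miR-371-5p and between −1.46 and 1.55 for miR-372, and the summed level difference between −53354 and 5477 CPM, all turning without mare 2. The log2 ratio difference ranged from 0.84 to 1.77, and the summed level difference of pregnant and cyclic UF from −3.22 to 6.70 CPM, turning without mare 2 or mare 5. In embryo against YS fluid the related miRNAs called higher numbered 0 with the filter lifted and 0 to 1 with a mare left out.

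For related miRNAs not called, signs turned near 0. For miR-93 in embryo against UF the log2 fold change was 0.58 with RLE, 0.0987 with no filter, 0.28 with filterByExpr, 0.58 with DESeq2 and 0.30 with known miRNAs only, and −0.15 to 0.24 with a mare left out. In embryo against YS fluid, leaving out a mare moved miR-302a between −0.49 and 0.27, miR-302b between −0.27 and 0.30, miR-302c between −0.48 and 0.26, miR-302d between −0.67 and 0.024, miR-17 between −0.74 and 0.062, miR-106a between −0.78 and 0.0595 and miR-93 between −0.40 and 0.083. The cause of these turns was not tested. Depth limits the maternal values, all under 3 reads for each member, and the YS fluid values, with at most 14531 reads a library.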
